A study of Homo sapiens with 8 samples.

Results

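A cluster of LY6 genes lies on the long arm of human chromosome 8, and 9 of its genes are described here: PSCA, LY6K, SLURP1, LYPD2, LYNX1, LY6D, GML, LY6E and LY6H. They were taken by gene name from the abundance table of every library and make up 9 of 60649 gene identifiers, of which 19942 are protein-coding. LY6D was one of the genes with the largest difference between UF1hypo and HCT116 cells under the control hairpin in earlier results of these data, and the other 8 were added as its relatives on the same chromosome. The family was thus chosen by measured values of that comparison, the TPM of LY6D under shScr in the lines, which is given below as a description with no test.

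LY6 genes encode small proteins built on the LY6/uPAR domain, a compact fold of loops held by disulfide bonds. Most are tethered to the outer cell surface by a glycosylphosphatidylinositol (GPI) anchor, and a few are secreted. Several mark particular steps of epithelial or blood cell differentiation, and some bind or modulate nicotinic acetylcholine receptors. LY6E is also known as a gene that interferon induces.

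RNA was sequenced from HCT116, a colorectal carcinoma line, and from UF1hypo, a clone of HCT116 in which exon 4 of one UHRF1 allele had been removed by CRISPR-Cas9. UHRF1 recruits the maintenance methyltransferase DNMT1 to newly replicated DNA. Lentiviral hairpins, either a control (shScr) or one that targets UHRF1 (shUHRF1), were introduced into each line, which gave 4 groups with 2 libraries each and 8 libraries in all. The comparisons ask what UHRF1 knockdown did in each line, and whether it did more in the line that already lacked an allele. All libraries came from puromycin-selected stable pools, so the control libraries were also transduced and selected. UF1hypo is 1 clone, obtained by limiting dilution and cloned again after Cre recombinase removed the selection cassette, and differences between it and HCT116 cannot be told apart from differences between a clone and its parental line. Nothing in the labels says whether the libraries of a group came from separate infections, so the p-values measure the spread between these libraries, which may be technical.

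Expression is given as TPM, a transcript abundance that corrects for gene length and is scaled to the same total in each library. The TPM of UHRF1 itself in HCT116 was 87.5 and 98.4 with shScr and 31.7 and 32.7 after knockdown, and in UF1hypo it was 47.3 and 50.6 with shScr and 34.1 and 21.1 after knockdown. It was lower in both knockdown libraries than in both control libraries of either line, in the direction of the labels. The libraries held between 5.42 and 7.83 gigabases of aligned sequence. Pearson's r between the 2 libraries of a group, across genes on the log2(TPM + 1) scale, was 0.995 to 0.996 in 3 groups and 0.979 in UF1hypo shUHRF1. Of 12 colorectal epithelium markers, 7 were above 1 TPM in every library, while CDX1, VIL1, CDH17, LGALS4 and GPA33 did not pass 1 TPM in any.

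Of the 9 LY6 genes, 5 passed 1 TPM in at least 1 library and entered the tests, namely LY6E, LY6D, LY6K, PSCA and LYNX1. The other 4, LY6H, LYPD2, SLURP1 and GML, stayed below 1 TPM throughout, although each was above 0 in at least 1 library. A member that passed only through the group where it is high, as LY6D did in the UF1hypo libraries and HCT116 shUHRF1, had to differ between groups. The genes spanned 490.404 kb of GRCh38, in the order PSCA, LY6K, SLURP1, LYPD2, LYNX1, LY6D, GML, LY6E and LY6H. PSCA occupies chr8:142670308-142682725 and LY6K chr8:142700111-142705127, both on the plus strand. SLURP1 (chr8:142740949-142742406), LYPD2 (chr8:142750150-142752532), LYNX1 (chr8:142771197-142777810) and LY6D (chr8:142784882-142786539) follow on the minus strand. GML (chr8:142834247-142916506) and LY6E (chr8:143017982-143023832) are on the plus strand, and LY6H (chr8:143157914-143160711) closes the row on the minus strand. Their canonical transcripts have 3 or 4 exons and a median GC content of 63.1%, against 50.1% over all protein-coding genes tested, whose 90th percentile is 62.8%.

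**Figure D1:**
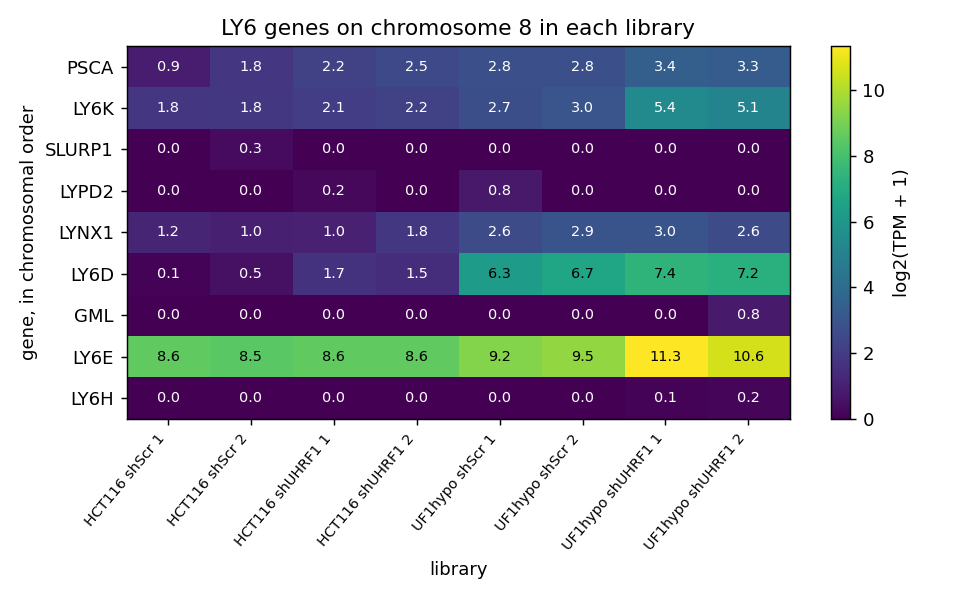
Expression of the 9 LY6 genes (rows, in chromosomal order) in the 8 libraries (columns), as log2(TPM + 1), with each value printed in its cell. LY6E was the highest in every library, LY6D passed 6 in the UF1hypo libraries only, and LY6H, LYPD2, SLURP1 and GML stayed below 1.

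LY6E, a GPI-anchored protein of wide tissue distribution, was by far the most abundant member. Its TPM in HCT116 was 385 and 351 with shScr and 382 and 382 after knockdown, and in UF1hypo it was 598 and 736 with shScr and 2605 and 1570 after knockdown. The HCT116 groups overlapped, both UF1hypo shScr libraries lay above all HCT116 libraries, and both UF1hypo shUHRF1 libraries lay above the rest. Group means were 368 ± 24.1, 382 ± 0.191, 667 ± 98.0 and 2087 ± 731 TPM (SD, n = 2 each), so that the knockdown groups of UF1hypo and HCT116 also had the widest and the narrowest spread. LY6E stood above 98.3% of all protein-coding genes in HCT116 shScr and above 99.8% in UF1hypo shUHRF1. It supplied 96.8% to 98.8% of the summed TPM of the 9 genes in the HCT116 libraries and 85.9% to 92.1% in the UF1hypo libraries.

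LY6D, a GPI-anchored protein known from keratinocytes and early lymphoid cells, was close to 0 in HCT116 and abundant in UF1hypo. Its TPM in HCT116 was 0.0901 and 0.407 with shScr and 2.20 and 1.82 after knockdown, and in UF1hypo it was 77.3 and 101 with shScr and 166 and 144 after knockdown. The groups did not overlap, and their order was HCT116 shScr, HCT116 shUHRF1, UF1hypo shScr and UF1hypo shUHRF1. Read coverage of the gene, the mean depth per base before any scaling, was 0.200 and 0.830 in HCT116 shScr and 4.07 and 2.15 in HCT116 shUHRF1, against 140 to 293 in the UF1hypo libraries. LY6D thus ranked above 32.5% of protein-coding genes in HCT116 shScr and above 94.6% in UF1hypo shUHRF1, and its share of the summed TPM of the 9 genes went from at most 0.561% in HCT116 libraries to between 5.87% and 11.8% in UF1hypo libraries.

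LY6K, a GPI-anchored protein best known from testis and counted among the cancer-testis antigens, was low in 3 groups. Its TPM in HCT116 was 2.52 and 2.59 with shScr and 3.22 and 3.63 after knockdown, and in UF1hypo it was 5.59 and 6.99 with shScr and 41.6 and 34.2 after knockdown. The groups stood in the same order as those of LY6D with no overlap, and the step into UF1hypo shUHRF1 was the largest of the 3. LY6K rose from above 50.4% of protein-coding genes to above 77.5% between the UF1hypo groups.

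PSCA, prostate stem cell antigen, is a GPI-anchored protein of bladder, stomach and prostate epithelium. Its TPM in HCT116 was 0.837 and 2.46 with shScr and 3.69 and 4.68 after knockdown, and in UF1hypo it was 5.87 and 5.89 with shScr and 9.73 and 8.83 after knockdown. These groups again did not overlap and kept the same order. LY6D, LY6K and PSCA were thus 3 of 5 tested members in this order, against 2.37% of the 13781 genes tested. Since the order includes the comparison on which the family was chosen through LY6D, nothing is read from that count.

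LYNX1, a GPI-anchored modulator of nicotinic acetylcholine receptors, separated the lines rather than the hairpins. Its TPM in HCT116 was 1.23 and 1.02 with shScr and 1.05 and 2.60 after knockdown, and in UF1hypo it was 4.98 and 6.65 with shScr and 6.83 and 5.06 after knockdown. The knockdown and control libraries overlapped in each line, while every UF1hypo library lay above every HCT116 library. The readthrough gene LYNX1-SLURP2, which shares 393 bp of exon with LYNX1 on the same strand, was at 0.438 to 1.46 TPM, and reads over the shared part can be assigned to either.

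The 4 remaining genes were at the limit of detection. SLURP1, a secreted keratinocyte protein, was listed above 0 only in HCT116 shScr replicate 2, at 0.257 TPM. LYPD2 was at 0.186 TPM in HCT116 shUHRF1 replicate 1, at 0.697 in UF1hypo shScr replicate 1, and at 0 elsewhere. LY6H, a GPI-anchored protein of brain, was listed at 0 in 6 libraries and at 0.0916 and 0.154 TPM in the UF1hypo shUHRF1 libraries. GML was above 0 only in UF1hypo shUHRF1 replicate 2, at 0.753 TPM with a coverage of 0.254. The tables hold no read counts, so no upper limit was set for the libraries at 0. Of the other LY6 genes of the same stretch of chromosome, picked here for their position, LY6L was at 0 in every library, SLURP2 was above 0 in UF1hypo shScr alone with 0.199 and 0.435 TPM, and GPIHBP1 passed 1 TPM in UF1hypo shUHRF1 replicate 1 alone, with 1.18.

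**Figure D2:**
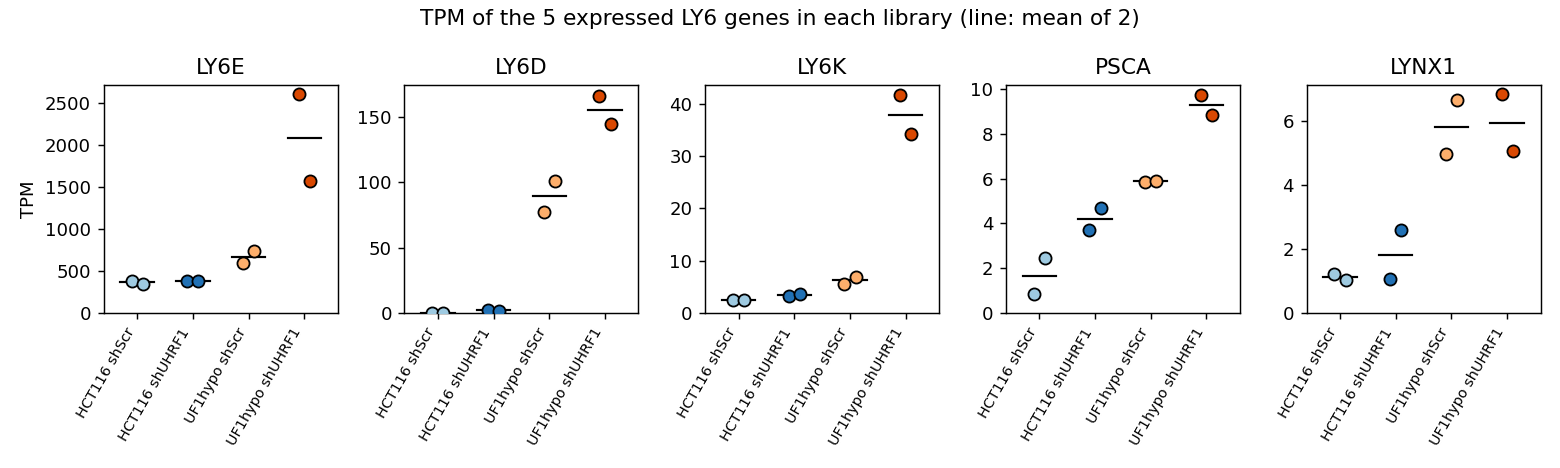
TPM (linear axis from 0, on its own scale for each gene) of the 5 LY6 genes above 1 TPM, by group, with 1 point per library and a line at the mean of 2 libraries. LY6E and LY6K were highest in UF1hypo shUHRF1 by a wide step, LY6D and PSCA were higher in each group than in the one before, and LYNX1 differed between the lines and overlapped between the hairpins.

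Under the control hairpin, the fitted differences of UF1hypo from HCT116 on the log2(TPM + 1) scale were 6.18 for LY6D, 1.67 for LYNX1, 1.45 for PSCA, 1.03 for LY6K and 0.85 for LY6E. LY6D alone went from near 0 to abundant. In HCT116 shScr, LY6E was at 385 and 351 TPM, while LY6K, PSCA and LYNX1 were low, at 0.837 to 2.59 TPM. Among the tested members 4 of 5 were above a log2 fold change of 1, where 3.51% of 12856 genes were. LY6K was just inside that limit and LY6E just outside it. The family was chosen through LY6D on this comparison, and nothing is read from the count. In bulk RNA, a larger share of cells that express a gene and more RNA per cell cannot be told apart.

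UHRF1 knockdown in HCT116 gave no LY6 gene that passed the test. The model was limma on log2(TPM + 1) over all 8 libraries, and a gene was called at a Benjamini-Hochberg adjusted p below 0.05 with an absolute log2 fold change above 1. By this rule 0.0472% of 12704 genes were called higher and 0.0236% lower. LY6D had a log2 fold change of 1.28 (SE 0.22) and an adjusted p of 0.103 in limma. For LY6D this is no independent test, because the HCT116 shScr libraries were among those it was chosen on and it passed 1 TPM in this contrast only after knockdown. PSCA had 1.03 (SE 0.30) with an adjusted p of 0.399. These were the 2 members with an unadjusted p under 0.05, as 6.38% of all genes tested had. LYNX1 at 0.36, LY6K at 0.31 and LY6E at 0.06 had adjusted p-values of 0.962 or more in the same model. Of the 4 members that passed 1 TPM in a control library too, LY6K and PSCA had both knockdown libraries above both controls, against 20.1% of all genes tested. The call for LY6D depended on the settings, since its adjusted p in limma ran from 0.00215 to 0.974 over 17 alternatives, at a log2 fold change of 1.09 to 2.76. Leaving out either UF1hypo shUHRF1 library kept the log2 fold changes at 1.28 for LY6D and 1.03 for PSCA, and both genes were then called. PSCA had 0.58 without HCT116 shScr replicate 1 and 1.49 without HCT116 shScr replicate 2, and was called in neither fit. Its TPM in these control libraries was 0.837 and 2.46. Without either library of HCT116, LY6D was not called.

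UHRF1 knockdown in UF1hypo raised LY6K and LY6E. LY6K rose by a log2 fold change of 2.42 (SE 0.21, adjusted p 0.000211 in limma), and its mean TPM was 6.02 times that of the control. LY6E rose by 1.61 (SE 0.23, adjusted p 0.00268), with a mean TPM 3.13 times that of the control. LY6D, already abundant in the UF1hypo control, had a log2 fold change of 0.80 (SE 0.22) and an adjusted p of 0.0507, and did not pass, with control libraries that it was also chosen on. PSCA, with 0.58 (SE 0.30, adjusted p 0.254), and LYNX1, with 0.03 (SE 0.30, adjusted p 0.966), did not pass either. The 2 called members are 2 of 5 tested, beside 7.39% of 13620 genes called higher and 1.14% called lower. Both knockdown libraries lay above both controls for LY6D, LY6E, LY6K and PSCA, 4 of 5 tested members, against 30.6% of all genes tested.

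The 2 UF1hypo shUHRF1 libraries differed from each other with the GC content of genes, with a Spearman's rho of 0.814 between their log2 difference and transcript GC content across 13781 genes, which are not independent. GC content was 60.6% to 63.2% for LY6E, LY6D, PSCA and LYNX1 and 51.5% for LY6K, and replicate 1 was the higher of the pair for all 5. With a correction for GC content and length, the log2 fold changes were 1.40 for LY6E (adjusted p 5.61e-05 in limma) and 2.28 for LY6K (adjusted p 4.11e-05). With replicate 1 left out they were 1.24 for LY6E and 2.28 for LY6K, and with replicate 2 left out 1.97 and 2.55. Both genes were called in each of these fits.

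**Figure D3:**
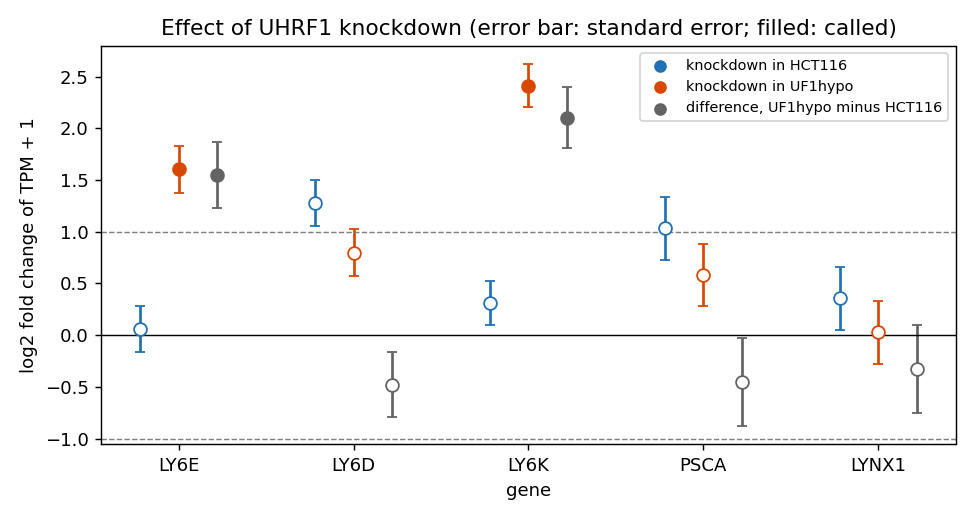
Log2 fold change of TPM + 1 after UHRF1 knockdown in HCT116 (blue) and UF1hypo (orange), and the difference of these effects (grey), for the 5 tested LY6 genes. Bars are the standard error from limma over 8 libraries, dashed lines mark a log2 fold change of 1 in either direction, and filled points were called, which were LY6E and LY6K in UF1hypo and in the difference.

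The difference of the knockdown effects between the lines passed the test for LY6K and LY6E, 2 of the 5 tested members. The effect in UF1hypo exceeded that in HCT116 by 2.102 for LY6K (SE 0.30, adjusted p 0.00685 in limma) and by 1.55 for LY6E (SE 0.32, adjusted p 0.0312). For LY6D the difference was −0.48 (SE 0.32, adjusted p 0.495), for PSCA −0.46 (SE 0.42, adjusted p 0.650) and for LYNX1 −0.33 (SE 0.43, adjusted p 0.766), none past the threshold. The value of LY6D contains the difference between the control groups that it was chosen on, with a negative sign, and is no independent test. Of all 13781 genes tested, 4.54% were called higher and 0.559% lower for the difference. LY6K lost its call without HCT116 shUHRF1 replicate 1 (adjusted p 0.0506). LY6E lost it in 9 of 17 alternatives, with an adjusted p of up to 0.149, among them each fit without an HCT116 or a UF1hypo shScr library.

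The protein-coding genes around the family were set beside it. Within 500 kb of the family's ends and between its members lie 27 further protein-coding genes, of which 23 passed 1 TPM. LY6L, SLURP2 and GPIHBP1 among them are LY6 genes that are also on the LY6/uPAR list below. The readthrough gene LYNX1-SLURP2 is among them too and shares exon with LYNX1. By limma 0 of 22 were called in HCT116, 0 of 23 in UF1hypo and 0 of 23 for the difference, and at an unadjusted p under 0.05 the counts were 1, 5 and 2, all higher, where 6.38%, 27.4% and 18.5% of all genes tested had such a p in either direction. Their median log2 fold change in UF1hypo was 0.19, against 0.04 over all genes tested, and the 2 LY6 genes called there, LY6K and LY6E, were the highest of the row. The neighbours nearest to a call, named after their values were seen, were ARC, an immediate early gene of neurons, at 1.03 (SE 0.29, adjusted p 0.0536 in limma), and ZNF696, a zinc finger gene, at 0.81 (SE 0.21, adjusted p 0.0418), which missed the fold limit.

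**Figure D4:**
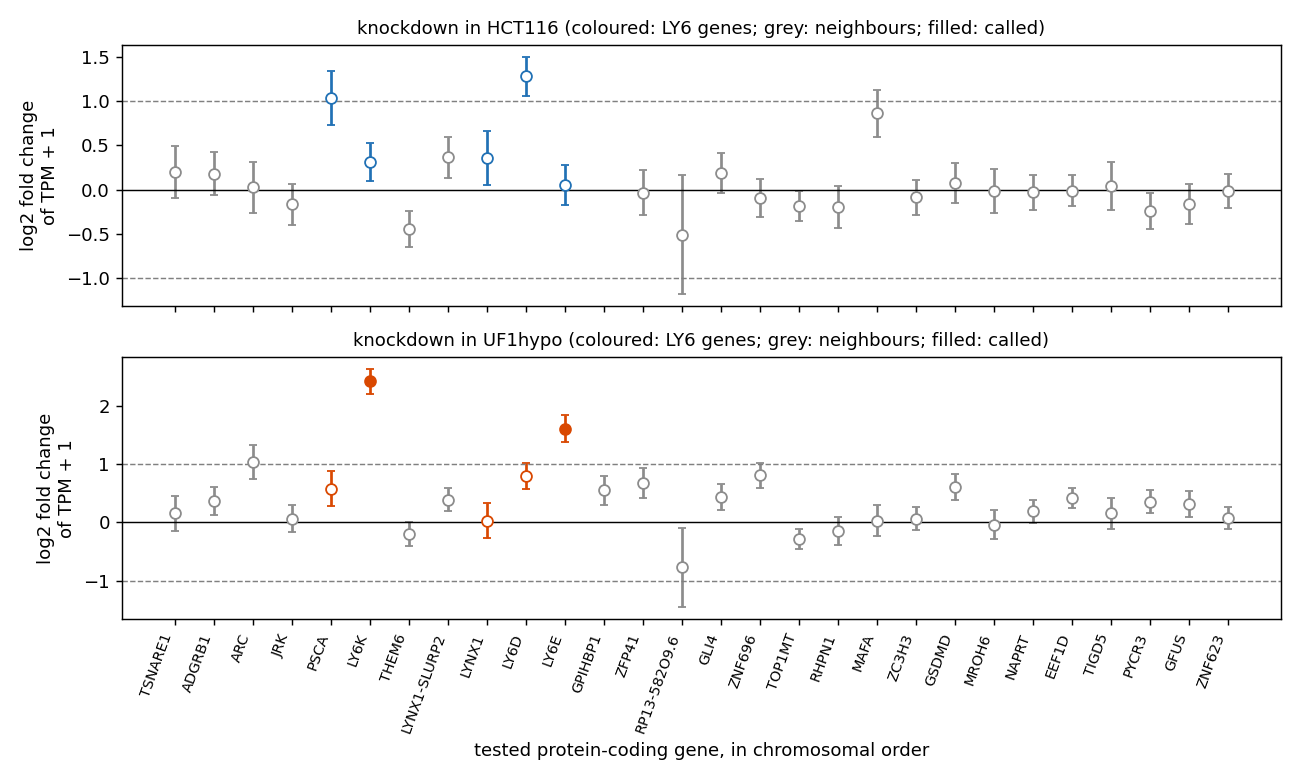
Log2 fold change of TPM + 1 after UHRF1 knockdown in HCT116 (top) and UF1hypo (bottom) for the tested protein-coding genes of the region in chromosomal order, with LY6 genes of the family in colour and neighbours in grey. Bars are standard errors from limma, and filled points, LY6K and LY6E in the lower panel, were called. The grey genes include LYNX1-SLURP2 and, in the lower panel, the LY6 gene GPIHBP1.

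Several members share exon sequence with a gene on the opposite strand, and whether strand was used in counting is not given in the sources used here, so reads of such pairs cannot be told apart. LY6K shares 80.8% of its exon bases with the antisense lncRNA LNCOC1, which was at 0.795 to 2.73 TPM in all libraries. PSCA shares 20.8% with JRK, and LY6D shares 14.4% with an antisense lncRNA. The TPM of JRK in HCT116 was 8.20 and 6.98 with shScr and 6.64 and 6.63 after knockdown. In UF1hypo JRK was at 10.7 and 10.7 TPM with shScr and 13.9 and 9.01 after knockdown, and it was above PSCA in every library. The part of JRK reads in the PSCA values was not tested. For LY6E the overlap with the divergent transcript LY6E-DT is 3.34%. The TPM of LY6E-DT in HCT116 was 0.944 and 1.40 with shScr and 0.652 and 1.14 after knockdown, and in UF1hypo it was 1.49 and 1.77 with shScr and 5.69 and 4.85 after knockdown, so its UF1hypo knockdown libraries, like those of LY6E, lay above all others.

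Other genes of the LY6/uPAR domain family, most of them on other chromosomes, were read next. Of 27 on the list 26 were found, and 14 of those passed 1 TPM. In HCT116, 0 of 8 tested were called by limma. At an unadjusted p under 0.05, 0 were higher and 2 lower, beside 6.38% of all genes in either direction. In UF1hypo 7.39% of all genes tested were called higher and 1.14% lower. The list had a median log2 fold change of 0.50 there, against 0.04 over all genes. Of its 14 tested genes, 4 were called higher and 0 lower. They were TEX101, a germ cell protein, at 1.80 (adjusted p 0.00563), LYPD3, a protein of squamous epithelium, at 1.56 (0.00867), PINLYP at 1.101 (0.00778) and LYPD5 at 1.07 (0.0431). Of the tested genes, TEX101, PINLYP, GPIHBP1, CD177 and SPACA4 passed 1 TPM in UF1hypo shUHRF1 alone among all groups. Each could enter only with a knockdown value above both controls, so nothing is read from the counts or the median of this list in UF1hypo or for the difference. LYPD3 had a TPM of 23.8 and 21.8 in the UF1hypo controls and 95.8 and 49.6 after knockdown, whereas TEX101 reached only 4.05 and 1.57 from 0.0624 and 0. For the difference between lines, where 4.54% of all genes were called higher, 3 of 14 were called, all higher. They were TEX101 at 1.80 (adjusted p 0.0482), LYPD6B at 1.35 (0.0413) and PLAUR, the urokinase receptor, at 1.08 (0.0458). PLAUR was at 121 and 108 TPM in HCT116 shScr and at 61.3 and 63.9 in HCT116 shUHRF1, against 130 and 150 and then 187 and 140 in UF1hypo.

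Genes that act on LY6 proteins were counted in the same way. Of 29 genes that build the GPI anchor and attach it to proteins such as LY6E, LY6D and LY6K, 0 were called by limma in any of the 3 knockdown tests. At an unadjusted p under 0.05, 1 was higher in HCT116, 3 were higher and 1 lower in UF1hypo, and 1 was higher for the difference, beside the shares of 6.38%, 27.4% and 18.5% over all genes. Of 16 nicotinic acetylcholine receptor subunits, the receptors that LYNX1 and the SLURP proteins bind, 9 passed 1 TPM. Of these, 6 were tested in HCT116, 9 in UF1hypo and 9 for the difference, and 0 were called. At an unadjusted p under 0.05 there were 0, 3 and 2, all higher, beside the same shares. In UF1hypo, PIGG of the anchor list at 0.70 (adjusted p 0.0343 in limma) and CHRNA4 at 0.89 (0.0249) missed only the fold limit.

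Interferon-stimulated genes, among which LY6E is commonly counted, moved in the same libraries. Of 32 on the list, which leaves LY6E out, 0 of 23 tested were called by limma in HCT116. At an unadjusted p under 0.05, 3 were higher and 0 lower, beside 6.38% of all genes in either direction. In UF1hypo 27 of 32 were called higher and 0 lower, beside 7.39% and 1.14% of all genes tested. Of the 32, 30 passed 1 TPM in a control library of either line, and the rest entered only through knockdown libraries. The median log2 fold change was 2.07, against 0.04 over all genes. For the difference 21 of 32 were called higher, beside 4.54% of all genes. MX1 at 6.85, OAS2 at 5.10 and XAF1 at 4.44 had the largest increases in UF1hypo, all above those of LY6K and LY6E. Under the control hairpin 28 of 30 were above a log2 fold change of 1 in UF1hypo against HCT116, beside 3.51% of all genes. The median of the 30 was 2.80. LY6D was above that median and LY6E below it, given as a description since the family was chosen through LY6D on this comparison.

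Genes of stratified epithelium, where LY6D, LYPD3 and SLURP1 are known to be expressed, were a further list. In HCT116 0 of 9 tested were called by limma. At an unadjusted p under 0.05, 0 were higher and 1 lower, beside 6.38% of all genes in either direction. In UF1hypo 8 of 12 were called higher and 0 lower, beside 7.39% and 1.14% of all genes tested. The median log2 fold change of the 12 was 1.30, against 0.04 over all genes. KRT17 and KRT4 passed 1 TPM in UF1hypo shUHRF1 alone among all groups, and could enter only with a knockdown value above both controls. DSC3 stayed under 1 TPM in UF1hypo and was not tested there, at 0.515 and 0.455 TPM with shScr and 0.142 and 0.279 after knockdown. For the difference 5 of 13 were called higher, beside 4.54% of all genes. KRT17 at 6.29, KRT14 at 3.62 and KRT5 at 2.51, keratins of basal or activated keratinocytes, had the largest increases. KRT17 had been at 0.406 and 0.484 TPM in UF1hypo shScr, where LY6D was already at 77.3 and 101, and reached 150 and 83.4 in UF1hypo shUHRF1. The list was mixed under the control hairpin. Of 11 genes, 4 were above a log2 fold change of 1 in UF1hypo against HCT116, beside 3.51% of all genes. Another 1 was lower by more than 1, and the median was 0.81. KRT13 was at 2.03 and 1.84 TPM in HCT116 shScr and at 49.5 and 56.6 in UF1hypo shScr. DSC3 was at 4.52 and 4.79, and then at 0.515 and 0.455. TP63, KRT1, IVL and LORICRIN, genes that define this epithelium, were at or below 1 TPM in every library, and of 22 genes 5 were at 0 throughout.

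Markers of other cells were read for the same libraries. The summed TPM of 15 leukocyte markers was 2.83 to 3.29 in the HCT116 groups, 3.48 to 3.82 in UF1hypo shScr and 7.21 to 12.2 in UF1hypo shUHRF1. Of 4 leukocyte markers tested in UF1hypo by limma, 1 was higher and 1 lower at an unadjusted p under 0.05, beside 27.4% of all genes. CD3D was called higher, beside 7.39% of all genes, at 0 and 0.287 TPM in UF1hypo shScr and 5.05 and 2.99 after knockdown. It passed 1 TPM only after knockdown, and could enter only with a knockdown value above both controls. CD79A went the other way and was not called, at 1.61 and 0.714 TPM in UF1hypo shScr and 0.280 and 0.0810 after knockdown. PTPRC, which defines leukocytes, was at most 0.0728 TPM. The summed TPM of the 12 colorectal epithelium markers was 4356 to 4410 in HCT116 shScr and 5487 to 5606 in HCT116 shUHRF1. It was 8822 to 9095 in UF1hypo shScr and 9968 to 12781 in UF1hypo shUHRF1. KRT8, KRT18 and KRT19 made up most of this sum in every library. Of 7 markers tested in UF1hypo, KRT20 alone was called, higher with 3.18, beside 7.39% of all genes called higher. CDH1 had 0.93 (adjusted p 0.00478 in limma) and missed the fold limit. For the difference 2 of 7 were called higher, KRT20 at 2.98 and CDH1 at 1.14, beside 4.54% of all genes. EPCAM was at 357 and 327 TPM in UF1hypo shScr and at 174 and 314 after knockdown. The summed TPM of the 9 LY6 genes was 357 to 395 in the HCT116 groups, 692 to 857 in UF1hypo shScr and 1763 to 2829 in UF1hypo shUHRF1. The part of these markers in the LY6 values was not tested.

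The genes whose profile over the 8 libraries was most like that of each member were read as a description, with Pearson's r of log2(TPM + 1) among 13780 genes. The libraries form 4 groups, so that r mostly follows the group levels. For LY6D they were PSME1, a proteasome activator subunit, with 0.998, and the interferon-stimulated genes IFI6 and IFI27 with 0.994 each. For LY6E they were PARP3 with 0.998, TYMP, thymidine phosphorylase, with 0.996, and NAPA with 0.995. For LY6K they were KLK11, a kallikrein protease, with 0.999, and DHRS2 and UBA7, the activating enzyme for ISG15, with 0.998 each. PSCA was closest to SERPINF2 with 0.998, the unnamed gene ENSG00000250644 with 0.980 and SMIM45 with 0.964. LYNX1 was closest to S100A2 and FOXH1, with 0.978 each, and to PACSIN1 with 0.977. Between members, r was highest for LY6E with LY6K, at 0.985, and for LY6D with LYNX1, at 0.949, and it was lowest for LY6K with LYNX1, at 0.760.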

How the data were processed

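Per the study's methods and the submitters' processing notes, the authors used fastp for trimming, HISAT2 2.0.4 for alignment to GRCh38 and StringTie 2.1.4 for gene abundances. The deposited TPM values were normalized by the authors for gene length and to a fixed total per library, the deposited FPKM values for gene length and aligned bases, and the deposited coverage values are mean read depths per base without scaling for depth. Replicates were not pooled, and no read counts were used here.

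Identifiers were matched to GENCODE 44 (60463 of 60649 found), records of an identifier were summed, and protein-coding genes were kept. log2(TPM + 1) was fitted in limma 3.58.1 under R 4.3.3, with 4 groups, a variance trend and 4 residual degrees of freedom shared over 8 libraries. Tests covered genes above 1 TPM in 1 or more libraries of a contrast. An exact permutation test of 2 against 2 libraries cannot give a p under 0.33 and was not used. Depth in aligned bases came from coverage over FPKM. Tables and plots used Python 3.11.15, pandas 2.3.3 and matplotlib 3.10.9. The fit was tested on simulated data.

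The members, gene lists and tests were chosen with earlier results of these data known. Named genes are the members, UHRF1, called genes of the LY6/uPAR and neighbour lists, up to 3 called genes of each further list, and the 3 genes closest in profile to each member. Outside this rule, ARC, ZNF696, LY6L, SLURP2, GPIHBP1, CD177, SPACA4, PIGG, CHRNA4, LY6E-DT and other genes that overlap members were named after their values were seen. So were KRT4, KRT13, DSC3, CD79A, EPCAM, KRT8, KRT18, KRT19 and markers at or below 1 TPM. Alternatives were pseudocount 0.1, no TPM filter, FPKM, median-ratio or quantile scaling, fewer libraries, all annotated genes, no variance trend and a replicate block. A GC content and length correction and a crossed block were added after seeing the data. No sequence of these genes is printed here.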

Additional observations from a re-analysis of the deposited data

Results flagged for a closer look

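The response of LY6E and LY6K to UHRF1 knockdown differed between the lines by a test of the difference itself. The log2 fold change in UF1hypo exceeded that in HCT116 by 1.55 for LY6E and by 2.102 for LY6K, with adjusted p-values of 0.0312 and 0.00685 in limma. LY6E lost the call in 9 of 17 alternatives, with adjusted p-values of 0.000793 to 0.149 over all of them, and among these were the replicate block (0.0514) and each fit without an HCT116 or a UF1hypo shScr library. LY6K lost it in 1, without HCT116 shUHRF1 replicate 1 (0.0506). LY6E had 382 and 382 TPM in the HCT116 knockdown libraries and 2605 and 1570 in those of UF1hypo, and LY6K had 3.22 and 3.63 against 41.6 and 34.2. For LY6E the difference was 1.19 without UF1hypo shUHRF1 replicate 1 and 1.91 without replicate 2 of that group, and for LY6K it was 1.96 and 2.24, and both genes were called in these fits.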

How the results depend on the processing

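LY6E and LY6K were called higher after knockdown in UF1hypo in all 19 alternatives, LY6E with log2 fold changes of 1.24 to 1.97 and LY6K with 2.17 to 2.57, and no result reversed its direction past the threshold. The count of 9 genes called in HCT116 became 30 with a pseudocount of 0.1, 2 with no TPM filter, 3 with median-ratio scaling, 89 with 4 libraries alone, 3 with all annotated genes, 5 without a variance trend, 71 with the GC content and length correction, and 0 to 100 with a library left out. The count of 0 LY6 genes called there became 1 (LY6D) with a pseudocount of 0.1, 4 libraries alone or the GC content and length correction, and 0 to 2 with a library left out (2 without either UF1hypo shUHRF1 library, LY6D and PSCA). In UF1hypo 1162 genes were called, against 748 with FPKM, 563 with 4 libraries alone, and 655 to 2255 with a library left out. These were 655 without UF1hypo shScr replicate 1 and 2255 without UF1hypo shUHRF1 replicate 2. For the difference 702 genes became 448 with a pseudocount of 0.1 and 171 to 2142 with a library left out. Of its 2 called LY6 genes 1 was left with no TPM filter or median-ratio scaling, and 0 to 2 with a library left out. Genes above a log2 fold change of 1 between the lines numbered 451, or 783 with a pseudocount of 0.1. Quantile normalization split the UF1hypo calls into 681 higher and 289 lower, against 1007 and 155, and those of the difference into 357 and 112, against 625 and 77. The GC content and length correction gave 777 and 269 for the difference. Cause was not tested.

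The correlation of same-numbered deviations was −0.402 between UF1hypo shScr and UF1hypo shUHRF1, and −0.0292 to 0.0547 for every other pair of groups. Same-numbered libraries thus did not clearly vary together in any pair of groups, and between the UF1hypo groups they went opposite ways. With a replicate block 1 gene was called in HCT116, 1110 in UF1hypo and 471 for the difference, where 1 LY6 gene was left, LY6K. With the UF1hypo shUHRF1 numbers crossed 1207 genes were called in UF1hypo.

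With 2 libraries a group, 4 residual degrees of freedom and no read counts, low levels such as those of LY6D in HCT116 carry an error that could not be computed from counts. The model shares 1 spread over all groups, while the UF1hypo shUHRF1 libraries differed more than the others. Leaving out a library leaves its group with 1, which is then assumed to vary like the rest.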
